A study of Mus musculus with 26 samples.

Results

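6 microRNA (miRNA) entries known from microglia and other immune cells were followed through 26 small RNA libraries of mouse hippocampus: mmu-mir-142a, mmu-mir-223, mmu-mir-146a, mmu-mir-155, mmu-mir-21a and mmu-mir-150, written below without the mouse prefix. They were picked by name from 1054 miRNA entries in a table of 1360 small RNA entries, and all 6 were among the 463 entries with enough counts to test. The mice were males of the C57BL/6J line, between 2 and 3 months old, and no genetic change is given in the labels. 14 libraries came from ventral hippocampus (vHC), 8 of them from control mice left in the homecage and 6 from mice that swam for 6 min in water of 18 °C. 12 libraries came from dorsal hippocampus (dHC), 6 from control mice and 6 after the same swim. Stressed tissue was taken 45 min after the swim began, and each library held tissue of both hemispheres. The labels put the libraries in 3 blocks, given only as dates, and each block holds every group. Block 1 has 4 vHC control libraries and 2 of each other group, and blocks 2 and 3 have 2 libraries of each group. The labels do not say whether a vHC and a dHC library came from the same mouse. Each dHC library bears the number after that of a vHC library of the same condition and block, so such pairs are possible. The tests between regions took all libraries as independent. p-values therefore measure the spread between these libraries, which may be partly technical.

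A miRNA is cut from a hairpin precursor and guides a silencing complex to messenger RNAs, mostly through pairing of its seed, the bases near its 5′ end. miR-142 is made in cells of the blood lineage, which include microglia, the resident macrophages of the brain. miR-223 is abundant in neutrophils and monocytes and restrains inflammatory signalling in them, and miR-150 is abundant in mature lymphocytes and represses the transcription factor Myb. miR-146a and miR-155 are induced when macrophages and microglia are activated: the former acts as a brake on Toll-like receptor signalling through Irak1 and Traf6, and the latter favours inflammatory responses, in part through the suppressor Socs1. miR-21a is made by many cell types, including immune cells and astrocytes, and represses Pdcd4. The libraries were made from bulk tissue, in which fewer cells of a type and less of the miRNA per cell cannot be told apart.

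The mature sequences are shown because the deposited entries are hairpins that add both arms together, and because the seed shows which other entry could act on the same targets. They are written 5′ to 3′ with the seed (bases 2 to 8) in capitals, from RefSeq on GRCm38.p6. RefSeq matches were found for all 6 entries, with 11 mature sequences. The arm usually loaded into the silencing complex is given, with both arms for mir-142a. For mir-150 only the 3p arm is given, and miR-150-5p, its main arm, was not used here.
miR-142a-5p: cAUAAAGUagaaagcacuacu
miR-142a-3p: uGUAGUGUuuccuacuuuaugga
miR-223-3p: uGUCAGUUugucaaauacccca
miR-146a-5p: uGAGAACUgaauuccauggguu
miR-146b-5p: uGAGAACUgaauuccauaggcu
miR-155-5p: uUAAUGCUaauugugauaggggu
miR-21a-5p: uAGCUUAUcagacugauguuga
miR-150-3p: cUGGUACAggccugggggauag
Among the 11 sequences, which leave out miR-150-5p, no seed was shared between entries. miR-146b-5p, which is not among them, has the seed of miR-146a-5p and differs from it by G18A and U21C, counted from the 5′ end with the miR-146a base first. The seed of miR-21a-5p occurs in miR-21c, which reached at most 1.67 counts in a library. The other 9 mature sequences had a seed that no other mature mouse miRNA of the RefSeq table has.

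The 6 hairpins lie at separate loci of GRCm38, as annotated by GENCODE. mir-142a is at chr11:87756864-87756927 on the plus strand, in an intron of the non-coding host gene Mir142hg and opposite Mir142b, which had 2.5 counts in all libraries together. mir-21a is at chr11:86584067-86584158 on the minus strand, inside an exon of Vmp1 in its untranslated part, and mir-146a is at chr11:43374397-43374461 on the minus strand, where the annotation has no other gene. mir-155 is at chr16:84714140-84714204 on the plus strand in an exon of Mir155hg. mir-223 is at chrX:96242817-96242926 on the plus strand in an exon of the non-coding gene F630028O10Rik. mir-150 is at chr7:45121757-45121821 on the plus strand, outside other annotated genes.

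mir-21a was the most abundant of the 6 in every library, with 4371 CPM or more where none of the others exceeded 2617 CPM. Levels are given as CPM, the counts of an entry scaled to a common total of miRNA counts and adjusted between libraries by the trimmed mean of M-values (TMM). Over 26 libraries, mmu-mir-21a averaged 9095 ± 2318 CPM (SD), rank 34 of the 463 entries, and took 0.929% of all miRNA counts. mmu-mir-150 averaged 1377 ± 482 CPM (rank 112), mmu-mir-146a 664 ± 115 CPM (rank 151) and mmu-mir-142a 224 ± 82.8 CPM (rank 207). mmu-mir-223 averaged 39.4 ± 13.4 CPM (rank 290) and mmu-mir-155 23.1 ± 4.62 CPM (rank 315). The highest library of mir-155 (30.8 CPM) was above the lowest of mir-223 (11.1 CPM), and the highest of mir-146a (979.6 CPM) above the lowest of mir-150 (721 CPM), so these neighbours in the order overlapped. mir-142a overlapped with the lowest library of mir-146a (384 CPM) only through its highest library (411.5 CPM), and its lowest (95.2 CPM) lay above the highest mir-223 library (61.7 CPM). Hairpins differ in how well their products enter a library, so an order between miRNAs is an order of counts.

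**Figure D1:**
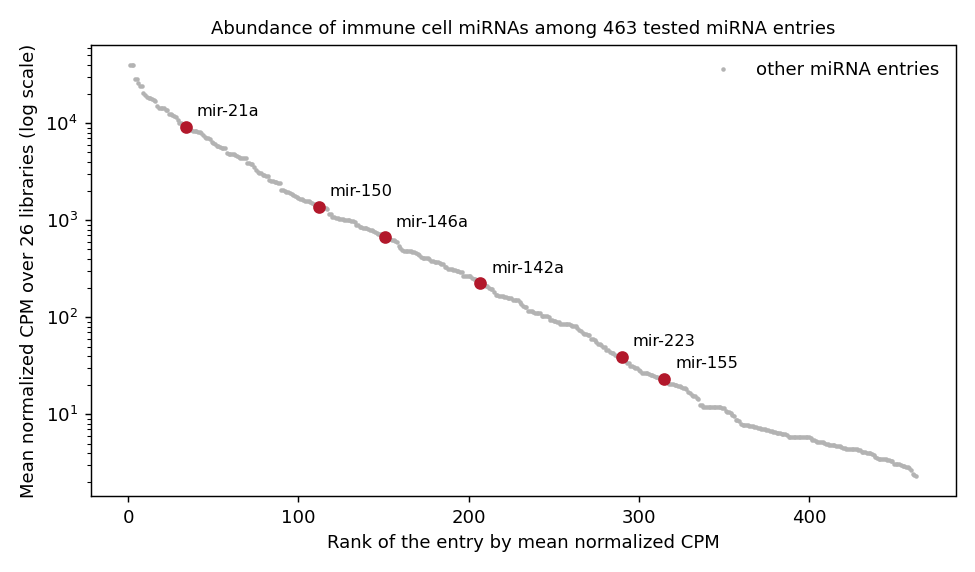
Mean normalized CPM over 26 libraries (log scale) against rank for the 463 tested miRNA entries (grey points), with the 6 immune cell miRNAs in red. mir-21a stood at rank 34 with 9095 CPM and mir-155 at rank 315 with 23.1 CPM.

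Counting error weighed most in the spread of mir-155 and least in that of mir-21a. Libraries held between 465387 and 4819724 miRNA counts. mir-155 had 9 to 120 counts in a library and mir-223 had 11 to 235, whereas mir-21a had 4542 to 55425. After the group and block means were subtracted, mir-223 varied most, with an SD of 0.55 on the log2 scale (rank 45 of 463 entries), of which counting error alone gives 0.185. The SD was 0.39 for mir-142a, 0.33 for mir-150 and for mir-155, 0.26 for mir-21a and 0.21 for mir-146a, against a median of 0.29 over all entries. For mir-155, counting error alone gives 0.22, and for mir-21a 0.011.

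3 libraries stood apart from the rest over all 463 entries: library 1 (vHC control), library 6 (dHC swim) and library 24 (dHC control, the shallowest). Their root mean square distance from the group and block means was between 0.52 and 0.57 on the log2 scale, and that of the other 23 libraries between 0.21 and 0.40. Library 1 had the lowest mir-142a, mir-146a and mir-21a of the 14 vHC libraries and the highest mir-150. Library 6 had the highest mir-146a, mir-155 and mir-21a of the 12 dHC libraries and the lowest mir-223, and library 24 had the lowest mir-150 of dHC and the second-highest mir-21a. Results that rest on these 3 libraries are given without them as well. All libraries carried the neuronal miRNAs mir-124, mir-128 and mir-137, which summed to between 75697 and 117533 CPM.

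**Figure D2:**
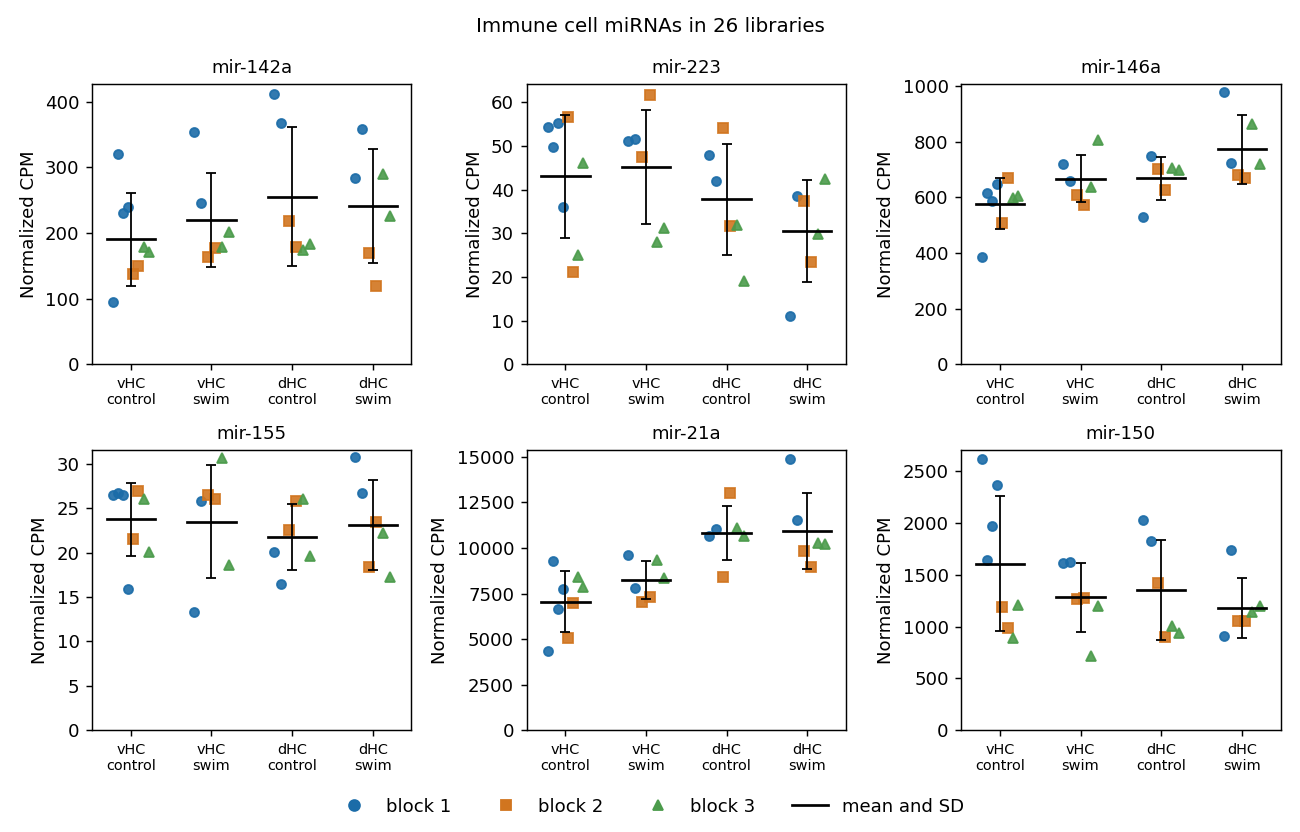
Normalized CPM of the 6 miRNAs in each of 26 libraries by region and condition, with bars at the group mean and SD and with symbols for the 3 blocks. The dHC libraries of mir-21a lay mostly above the vHC libraries, and in mir-142a and mir-150 the block 1 libraries lay mostly above those of blocks 2 and 3.

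Between regions, mir-21a was the member that differed. It was higher in dHC than in vHC in control mice, 1.57-fold, and after swim, 1.33-fold. In control mice mir-21a was at a lowest value of 4371 CPM, a median of 7369 and a highest of 9293 in vHC, and at 8432, 10854 and 13026 CPM in dHC. 5 of 6 dHC control libraries were above the highest vHC control library, and only library 18 lay within the vHC range. The log2 difference was 0.65 (SE 0.135, 95% confidence interval 0.37 to 0.92, adjusted p = 5.27e-04 by edgeR's quasi-likelihood test with block as a term and Benjamini-Hochberg adjustment). After swim, mir-21a was at 7045, 8079 and 9617 CPM in vHC and at 8963, 10249 and 14878 CPM in dHC. Here too 5 of 6 dHC libraries were above the highest vHC library, with library 22 as the exception. The log2 difference was 0.41 (SE 0.143, interval 0.12 to 0.70, adjusted p = 0.0433 by the same edgeR test).

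The direction held in each block. Within blocks 1, 2 and 3, the mean log2 CPM of mir-21a in dHC exceeded that in vHC by 0.68, 0.82 and 0.42 in control mice and by 0.60, 0.39 and 0.21 after swim. Within a block, no dHC library overlapped with a vHC library of the same condition. With groups as small as 2 libraries in a block, such a separation says little. Swim and control libraries of mir-142a in dHC were also free of overlap in each block, with differences of -0.29, -0.47 and 0.52. The share of all entries without overlap within blocks was not computed. A two-sided exact permutation test of log2 CPM gave p = 0.00233 in control mice and p = 0.00866 after swim, and with labels exchanged only within blocks p = 0.0037 and p = 0.00926. These are 2 of 24 comparisons of this kind, unadjusted. Without libraries 1, 6 and 24 the log2 differences were 0.51 and 0.34, both past the threshold (edgeR adjusted p = 7.29e-05 and 0.00713). The call after swim was lost when any of libraries 6, 15, 16, 20, 21 or 29 was left out (log2 difference 0.32 to 0.41, adjusted p = 0.0524 to 0.126), and with no block term (0.41, adjusted p = 0.0858). With surrogate variables in place of block, of which the second carries 91.4% of its variance between regions, neither call held (0.75 and 0.55, adjusted p = 0.188 and 0.378). The regional difference was not shown to depend on the swim. The interaction was taken from the swim fit, which has 2 surrogate variables and no block term, and was -0.21 (SE 0.200, edgeR adjusted p = 0.952). Under the alternatives, block in place of surrogate variables among them, it was -0.30 to -0.15 and was not called.

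mir-142a came close to the same pattern in control mice. In vHC control its lowest, median and highest values were 95.2, 175 and 320.5 CPM, and in dHC control 174, 200.4 and 411.5 CPM. The groups overlapped, with 2 of 6 dHC libraries above the highest vHC library. The log2 difference was 0.49 (SE 0.187, interval 0.11 to 0.88, edgeR adjusted p = 0.0539), which missed the threshold. It passed under 5 alternatives of scaling, filter, rounding or tool (0.48 to 0.54, adjusted p = 0.0152 to 0.0373), without libraries 1, 6 and 24 (0.43, adjusted p = 0.0175), and in the 16 fits that left out a library other than 5, 8, 9, 13, 14, 17, 18, 21, 25 or 31 (0.39 to 0.60, adjusted p = 0.0176 to 0.0484), among them that without library 1 (0.39, adjusted p = 0.0317). It was 0.43 with no block term (adjusted p = 0.360) and 0.19 with surrogate variables in place of block (adjusted p = 0.837), and in the 10 fits without one of the libraries named it was 0.43 to 0.52 (adjusted p = 0.0521 to 0.127). The exact permutation test gave p = 0.187 over all control libraries and p = 0.0259 within blocks. The within-block differences were uneven, 0.94 in block 1, 0.46 in block 2 and 0.03 in block 3. After swim mir-142a was at 163, 190.3 and 353 CPM in vHC and at 119, 255 and 358 CPM in dHC, and the log2 difference was 0.12 (SE 0.196, adjusted p = 0.726).

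The other members gave no regional call. mir-146a was at 384, 602 and 671 CPM in vHC control and at 531, 700.1 and 749 CPM in dHC control. After swim it was at 574, 649 and 806 CPM in vHC and at 669, 722 and 979.6 CPM in dHC. Its log2 difference was 0.21 in each condition (SE 0.118 and 0.125, edgeR adjusted p = 0.188 and 0.258), and dHC was above vHC within all 3 blocks in both conditions. mir-223 had a log2 difference of -0.14 in control mice (SE 0.258, adjusted p = 0.718) and of -0.48 after swim (SE 0.271, adjusted p = 0.231), where all 6 dHC libraries were below the vHC median. mir-155 (-0.17 and -0.03) and mir-150 (-0.11 and -0.08) had intervals from -0.54 to 0.36 and from -0.44 to 0.27, which leave room for differences of up to about those sizes. With surrogate variables in place of block the signs of mir-146a, mir-150 and mir-155 turned in both conditions.

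1 of 6 members was called between regions in control mice, where 22.5% of all 463 entries were called (36 higher in dHC, 7.78%, and 68 lower, 14.7%), and 1 of 6 after swim, where 20.3% were (35 higher, 7.56%, and 59 lower, 12.7%). The dHC and vHC libraries of a member overlapped in every case, 0 of 6 members being free of overlap in each condition, against 6.7% of all entries in control mice and 5.83% after swim. The same member, mir-21a, was called in both conditions, as were 14.3% of all entries. The median log2 difference over the members was 0.05 in each condition, and over all entries 0.0055 in control mice and -1.51e-04 after swim. The split of all called entries depended on the scaling: in control mice it was 66 higher and 64 lower with DESeq2 size factors, 63 and 64 with TMMwsp scaling, 72 and 61 with the DESeq2 test and 52 and 67 with unrounded counts.

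Other cell type miRNAs differed between the same regions. Those of oligodendrocytes (mir-219a-1, mir-219a-2 and mir-338) were called higher in dHC, 3 of 3 in control mice (log2 difference 0.47 to 0.99) and 3 of 3 after swim (0.36 to 0.97). Their summed level ranged from 3321 to 4939 CPM in vHC control, 4329 to 7617 in dHC control, 3638 to 4714 in vHC swim and 4578 to 6941 in dHC swim. The 4 miRNAs of red blood cells were split in control mice. mir-486a and mir-486b were called lower in dHC (both -0.92), and mir-144 (0.40) and mir-451a (0.15) lay above 0 and were not called. Over all libraries mir-486a had 10087.5 counts and mir-486b 9699.5, and these entries may not be separate measurements. After swim 1 of the 4 was called lower, and the values ran from -0.42 to -0.01. The sum of the 4 ranged from 646 to 951 CPM in dHC and from 748 to 997 CPM in vHC. Of 6 miRNAs listed for the choroid plexus, mir-204, mir-211 and mir-449a were called higher in dHC in control mice (0.55 to 0.57) and mir-200a, mir-200b and mir-429 lower (-1.60 to -1.003), and after swim 1 was called higher and 3 lower. The endothelial mir-126a and the 6 neuronal entries were not called. The neuronal values ran from -0.31 to 0.23 in control mice and from -0.31 to 0.13 after swim. The 3 mir-124 entries among them had nearly equal counts and may not be separate measurements. The part of these cell types in the mir-21a difference was not tested.

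**Figure D3:**
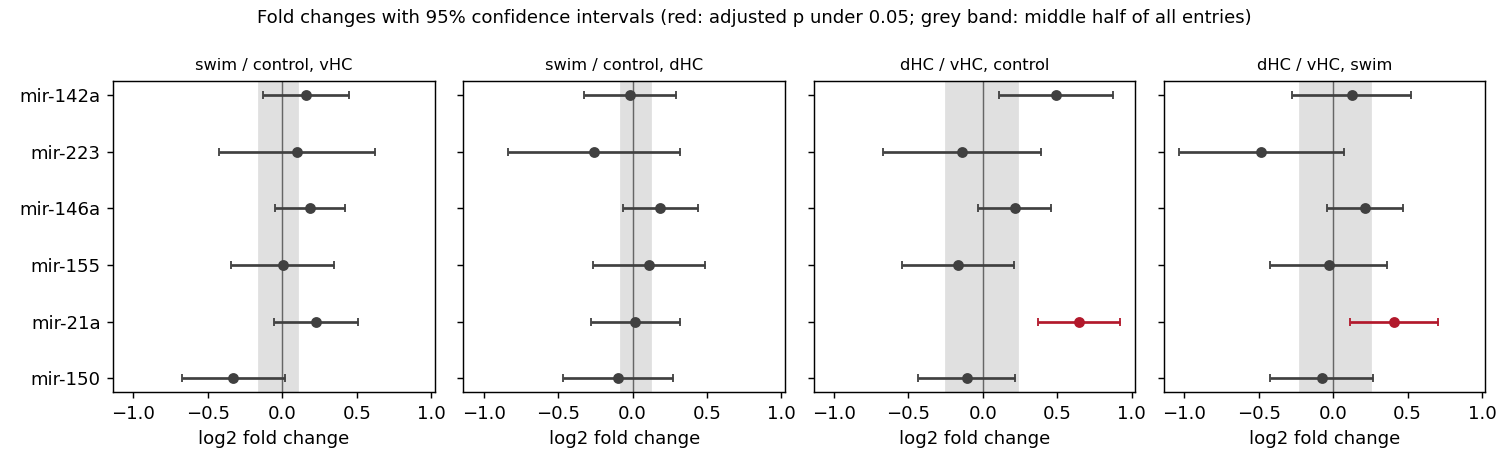
Log2 fold changes of the 6 miRNAs with 95% confidence intervals for swim against control in vHC and dHC and for dHC against vHC in control mice and after swim. Red marks adjusted p under 0.05 and the grey band spans the middle of the distribution over all 463 entries, from the lower to the upper quartile. The red points are mir-21a in the regional comparisons, at 0.65 and 0.41.

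The swim was the question the libraries were made for: whether small RNAs had changed 45 min after acute stress. No member was called in either region. 0 of 6 members passed the threshold in vHC and 0 of 6 in dHC, and 0 of 463 entries did (0% called in each region). At an unadjusted p under 0.05 there were 0 of 6 members in each region, against 35 entries (7.56%) in vHC and 17 (3.67%) in dHC. DESeq2 called 0 entries as well. In vHC 5 of 6 members had a log2 fold change above 0, as did 42.5% of all entries, and in dHC 3 of 6, as did 54.6%. The median over the members was 0.13 in vHC and 7.34e-04 in dHC, and over all entries -0.030 and 0.017.

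Of the activation-linked miRNAs, mir-146a went from a median of 602 CPM in vHC control to 649 CPM after swim, and from 700.1 to 722 CPM in dHC. 2 of 6 swim libraries were above the highest control library in each region, and all other swim libraries lay within the control range. The fitted log2 fold change was 0.19 in vHC (SE 0.115, interval -0.05 to 0.42, edgeR adjusted p = 0.655) and 0.19 in dHC (SE 0.122, interval -0.06 to 0.44, adjusted p = 0.982), and the within-block differences were above 0 in all 3 blocks of both regions (0.02 to 0.42).

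mir-155 was at 15.96, 26.26 and 26.96 CPM in vHC control and at 13.28, 25.95 and 30.66 CPM in vHC swim. In dHC it was at 16.53, 21.36 and 26.10 CPM in control mice and at 17.30, 22.82 and 30.76 CPM after swim. The ranges of swim and control overlapped in both regions. The fold change was 1.002 in vHC (95% interval 0.79 to 1.27) and 1.08 in dHC (0.83 to 1.40), so a rise above 1.40-fold lies outside both intervals.

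mir-21a and mir-142a had small positive values in vHC. mir-21a had a log2 fold change of 0.23 in vHC (SE 0.138, unadjusted p = 0.110, edgeR adjusted p = 0.655) and 0.02 in dHC (SE 0.147, adjusted p = 0.998), and mir-142a 0.16 (SE 0.141, adjusted p = 0.715) and -0.02 (SE 0.151, adjusted p = 0.998). The medians of mir-21a were 7369 and 8079 CPM in vHC control and swim, and 10854 and 10249 CPM in dHC. For mir-21a in vHC, 2 of 6 swim libraries were above the highest control library, and both ranges overlapped.

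The median of mir-150 was lower after swim in both regions, within overlapping ranges. It was at 893, 1426 and 2617 CPM in vHC control and at 721, 1269 and 1623 CPM in vHC swim. Its log2 fold change of -0.33 had the smallest p of the 6 (SE 0.168, interval -0.67 to 0.02, unadjusted p = 0.0621, edgeR adjusted p = 0.655), and it was -0.15 without library 27 and -0.12 without libraries 1, 6 and 24. The within-block differences of mir-150 in vHC were -0.39, 0.23 and -0.16. In dHC mir-150 was at 900.5, 1215 and 2035 CPM in control mice and at 912, 1100 and 1737 CPM after swim, a log2 fold change of -0.10 (SE 0.179).

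mir-223 was at 21.1, 47.9 and 56.7 CPM in vHC control and at 27.99, 49.3 and 61.7 CPM in vHC swim, a log2 fold change of 0.10 (SE 0.255). In dHC it was at 18.98, 36.9 and 54.2 CPM in control mice and at 11.1, 33.5 and 42.4 CPM after swim, a log2 fold change of -0.26 (SE 0.281). Its intervals were the widest of the 6 in both regions. The within-block differences in dHC ran from -1.08 in block 1, which holds library 6, to 0.52 in block 3, and without libraries 1, 6 and 24 the dHC value was 0.02. No swim effect was shown to differ between regions: the interaction called 0 of 6 members and 0% of entries (edgeR adjusted p = 0.952 to 0.999 for the members; 22 entries, 4.75%, at an unadjusted p under 0.05), and the test of stress and interaction together called 0 of 6 and 0% of entries (17 entries, 3.67%, unadjusted).

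Between blocks, 2 of the 6 members differed. mir-142a and mir-150 were lower in blocks 2 and 3 than in block 1, and the other 4 were not called. mir-142a ran from 95.2 to 411.5 CPM in block 1 with a median of 302, from 119 to 218 CPM in block 2 with a median of 166, and from 172 to 290.3 CPM in block 3 with a median of 181. Library 1 apart, every block 1 library of vHC (230.2 CPM and above) was above every vHC library of the other blocks (201.4 CPM and below). In dHC the lowest block 1 library, at 283 CPM, was above all 4 libraries of block 2 and 3 of the 4 of block 3. The log2 differences from block 1 were -0.86 for block 2 (SE 0.164) and -0.57 for block 3 (SE 0.163), with an adjusted p of 2.15e-04 over the 3 blocks by edgeR.

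mir-150 was likewise highest in block 1. It ran from 912 to 2617 CPM in block 1 with a median of 1781, from 900.5 to 1423 CPM in block 2 with a median of 1122, and from 721 to 1210.1 CPM in block 3 with a median of 1075. Library 6 apart, every block 1 library (1611 CPM and above) was above every library of blocks 2 and 3. The log2 differences were -0.64 for block 2 (SE 0.140) and -0.78 for block 3 (SE 0.140), with an edgeR adjusted p of 7.28e-05 over the 3 blocks.

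The block test called 2 of 6 members, where 53.1% of all entries were called. Against block 1, 2 of 6 were lower in block 2 (29.8% of all entries lower and 22.7% higher) and 2 of 6 in block 3 (30% lower and 22% higher), so the members were not called more often than entries in general. The split of all called entries depended on the scaling here too. In block 2 it was 105 higher and 138 lower, but 137 and 119 with DESeq2 size factors, 131 and 118 with the DESeq2 test, 123 and 125 with unrounded counts and 116 and 125 with TMMwsp scaling. In block 3 it was 102 and 139, but 121 and 115, 118 and 112, 114 and 117, and 130 and 108 in the same order. mir-142a and mir-150 were called lower in both blocks under each of these 4 alternatives. mir-223, mir-146a, mir-155 and mir-21a had adjusted p from 0.158 to 0.868. By the test over 3 blocks, 2 members were called in each fit that left out a library, and 3 without libraries 1, 6 and 24. The contrasts of a single block with block 1 were tested separately by edgeR. There mir-21a was lower in block 2 without libraries 1, 6 and 24 (-0.27, adjusted p = 0.00504). mir-223 was lower in block 3 without library 6 (-0.54, adjusted p = 0.0240), against -0.40 with all libraries (adjusted p = 0.134). The medians over all entries were -0.05 and -0.08 for blocks 2 and 3, and over the members -0.17 and -0.21. The labels give a block only as a date, and the steps that differed between blocks cannot be told apart. The paper states that library preparation ran in 3 batches, each mixing regions and conditions. The labels do not say whether those batches are the blocks.

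**Figure D4:**
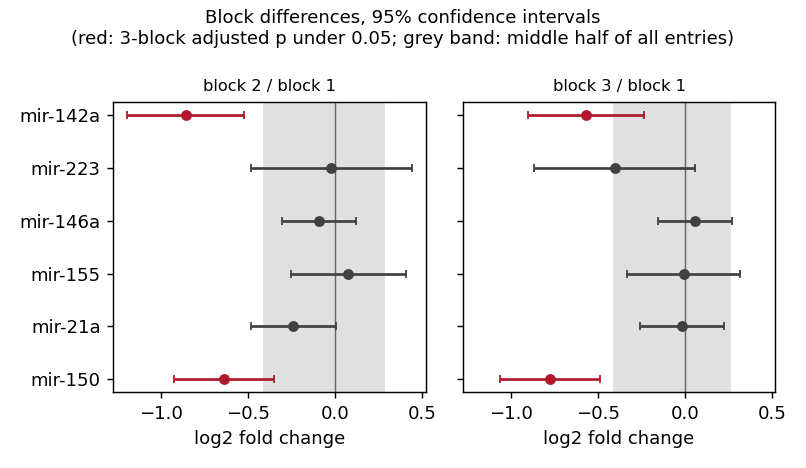
Log2 fold changes of the 6 miRNAs for block 2 and block 3 against block 1, with 95% confidence intervals. Red marks an adjusted p under 0.05 over the 3 blocks, the grey band spans the lower to the upper quartile of all 463 entries, and mir-142a (-0.86 and -0.57) and mir-150 (-0.64 and -0.78) are the red members.

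7 other leukocyte entries were in the table, and 3 had enough counts to test: mir-146b, mir-342 and mir-511. mir-146b, which shares the seed printed for miR-146a-5p, went the other way between regions. It was at 1194, 1450 and 1763 CPM in vHC control and at 842, 1072 and 1239 CPM in dHC control. The ranges overlapped only between 1194 and 1239 CPM. The log2 difference was -0.42 (SE 0.117, edgeR adjusted p = 0.00895), where mir-146a had 0.21, and after swim it was -0.20 (SE 0.123, adjusted p = 0.279). The mean of mir-146b, 1334 CPM, was above that of mir-146a, 664 CPM.

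mir-511, which lies in the gene of the macrophage mannose receptor Mrc1, was near the limit of detection, with 0 to 21 counts in a library. After swim it was at 4.53, 4.68 and 6.20 CPM in vHC and at 0, 2.16 and 3.61 CPM in dHC. The groups did not overlap, as was the case for 5.83% of all entries. The log2 difference was -1.14 (SE 0.355, edgeR adjusted p = 0.0169), and in control mice it was -0.44 (SE 0.304, adjusted p = 0.298). mir-342, hosted by the gene Evl, differed between blocks (adjusted p = 0.0278) and not between regions (-0.18 and -0.22, adjusted p = 0.384 and 0.351). In all, 1 of 3 was called lower in dHC in control mice (14.7% of all entries) and 1 of 3 after swim (12.7%). By block 1 of 3 was called, against 53.1% of all entries. For swim against control 0 of 3 were called in either region, as were 0% of all entries. In dHC, however, mir-146b (log2 fold change 0.28, SE 0.122) and mir-511 (-0.75, SE 0.368) ranked 11 and 17 of 463 entries by the edgeR test. There mir-342 (-0.19) ranked 91. In vHC the values were 0.05, -0.05 and -0.19, at ranks 344, 400 and 120. mir-147 reached 17 counts in its highest library, and mir-142b, mir-21b and mir-21c at most 2.83.

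The members did not vary as a unit from library to library. Block and condition means were subtracted within each region, and the 15 pairs of members were correlated over the 14 vHC and the 12 dHC libraries. The median Pearson r over the pairs was -0.31 in vHC and -0.30 in dHC, with 4 and 6 of 15 pairs above 0. All values share the scaling of their library, so a high share of some entries lowers others. 42 relations were computed, 30 between members and 12 with the summed red blood cell miRNAs, and 3 passed after Benjamini-Hochberg adjustment.

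In vHC, mir-142a and mir-21a varied together (r = 0.91, rho = 0.78, n = 14, permutation p = 5.2e-04 and 6.1e-04, adjusted p = 0.0153 and 0.0174). Without libraries 1 and 7, the farthest from the median, r was 0.63, and without library 1 alone 0.79. Within blocks r was 0.98, 0.60 and 0.39. In dHC the same pair had r = -0.30 (permutation p = 0.396), and the difference between regions was not tested.

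In dHC, mir-223 and mir-150 varied together (r = 0.92, rho = 0.89, n = 12, permutation p = 7.3e-04 and 8.3e-04, adjusted p = 0.0153 and 0.0174). r was 0.82 without libraries 6 and 32, 0.87 without libraries 6 and 24, and 0.996, 0.74 and 0.91 within blocks. In vHC the pair had r = 0.44 (permutation p = 0.150). mir-21a and mir-150 went opposite ways in dHC (r = -0.86, rho = -0.83, n = 12, permutation p = 0.00194 and 0.00142, adjusted p = 0.0272 and 0.0199). r was -0.71 without libraries 6 and 24, and -0.98, -0.94 and -0.83 within blocks. With the summed red blood cell miRNAs, 0 of 12 relations had an unadjusted permutation p under 0.05.

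**Figure D5:**
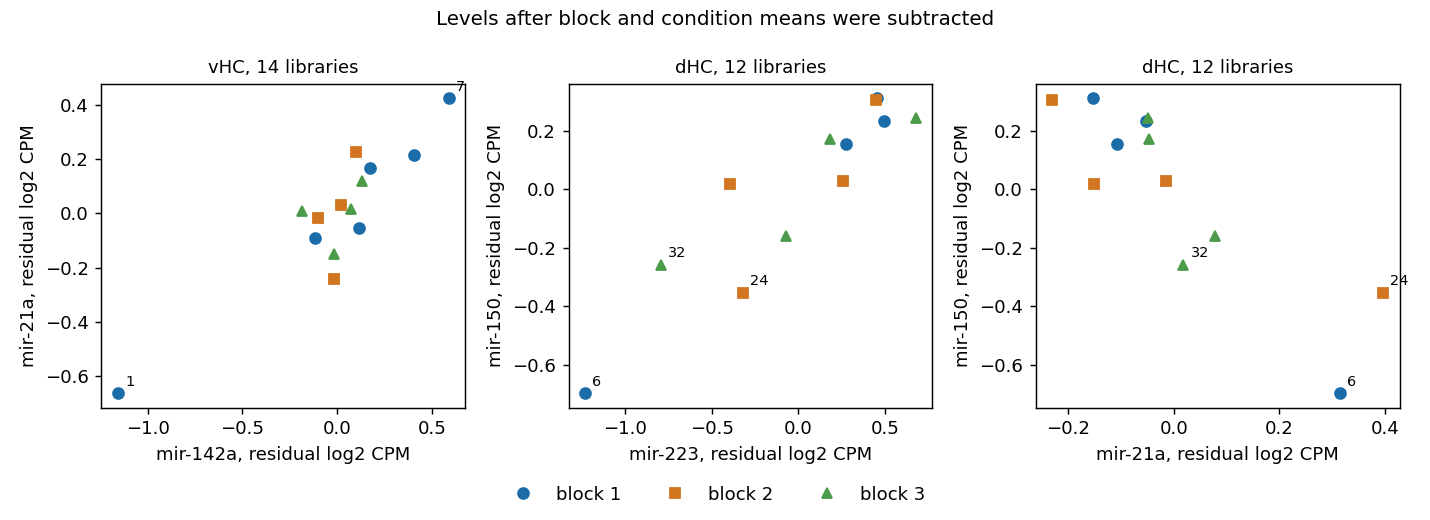
Residual log2 CPM, after block and condition means were subtracted, of mir-142a and mir-21a in 14 vHC libraries (left), of mir-223 and mir-150 in 12 dHC libraries (centre), and of mir-21a and mir-150 in the same 12 (right). Each point is a library, symbols mark the block, and libraries 1, 6, 7, 24 and 32 are numbered. r is 0.91, 0.92 and -0.86.

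The members are 6 of the 463 tested entries, so few of them would appear among the closest entries by number alone. Which entries were closest therefore does not decide whether the members varied together. Among all 463 entries, those with the residual pattern most like each member over 26 libraries were as follows. For mir-21a they were mir-30e (r = 0.93), mir-101c (0.89) and mir-30a (0.86), and for mir-150 mir-664 (0.93), mir-574 (0.92) and mir-15b (0.90). For mir-142a they were mir-194-1 (0.89), mir-194-2 (0.89) and the endothelial mir-126a (0.88), and for mir-146a mir-186 (0.84), mir-666 (0.74) and mir-1843a (0.74). For mir-223 they were mir-339 (0.76), mir-23a (0.75) and the member mir-150 (0.74). mir-155 had the weakest likeness to any entry, with mir-676 (0.57), mir-221 (0.52) and mir-92a-2 (0.51). It had only 9 to 120 counts in a library, and how far counting error lowered its r was not tested. These r values describe 26 points that share library, depth and scaling.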

How the data were processed

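Small RNA was measured in 26 bulk libraries (Nextflex v3, Trizol RNA). The authors trimmed reads with cutadapt (error rate 0.05, minimum length 18), collapsed molecular tags and annotated them with Sports 1.0; the submitters' processing notes name GRCm38. What the authors deposited is a table of expected counts, not normalized, of which 29.5% are not whole. They had been taken to be whole counts when the tests were planned, and were rounded for the count tests. Collapsed reads count distinct pairs of sequence and tag, so counts stand closer to molecules than to reads. All columns matched a sample. 0 pairs of columns were identical, and within groups the chi-square per degree of freedom was at least 11.2.

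Tests used R 4.3.3, edgeR 4.0.16 (quasi-likelihood, TMM, filterByExpr with minimum count 10 and total 15), sva 3.50.0 and limma 3.58.1, with DESeq2 1.42.0 as an alternative, and scipy 1.17.1 for permutations (exact for groups, 100000 within blocks for correlations). Swim effects were fitted with region, condition, their interaction and 2 surrogate variables. Region and block were fitted with block as a term. Adjustment ran over all 463 tested entries, threshold 0.05. On simulated counts for 463 entries with 200 changed 2-fold, 192 were recovered for swim in vHC (without surrogate variables) with 3 false calls, and 194 for region in control mice with 7. The simulated counts had no block effect and no library set apart. They check the calculation and do not give the power for these libraries or for changes below 2-fold. Members, marker lists and the 8 other leukocyte miRNAs (7 of them in the table) were chosen with earlier results of these data known. The miRNAs named are the members, the tested entries of those lists and, for each member, the 3 entries with the highest r. Group replicates carry library numbers from the sample titles.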

Additional observations from a re-analysis of the deposited data

Results flagged for a closer look

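Of 24 groups of libraries, each a member within a region and condition, 1 held a library far from the others by Dixon's test: in vHC swim, mir-150 was at 721 CPM in library 27, and the other 5 libraries lay between 1202 and 1623 CPM. Chance alone gives such a library in about 1 of 20 groups. Library 27 belongs to block 3, in which mir-150 was low in general, and the swim difference of mir-150 in vHC was -0.15 on the log2 scale without it, against -0.33 with it.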

How the results depend on the processing

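In every alternative, no member and no entry was called for the swim, alone or by region. Between regions in control mice, the members called were 2 with DESeq2 size factors, TMMwsp, no filter, the DESeq2 test, unrounded counts or without libraries 1, 6 and 24, 0 with surrogate variables in place of block, and 1 to 2 when a library was left out. After swim they were 0 with surrogate variables, 0 with no block and 0 to 1 when a library was left out. Entries called with no block were 67 in control mice and 56 after swim, against 104 and 94, and 58 after swim with surrogate variables. Surrogate variables moved the median of all entries to -0.24 and -0.18, and the cause was not tested.

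Some values turned their sign, none of them called and not all of them near 0. In the main fit mir-146a had 0.21 between regions in each condition, and mir-223 had -0.26 for swim in dHC. With surrogate variables in place of block, mir-146a was -0.19 and -0.19 in control mice and after swim, mir-150 0.053 and 0.28, mir-155 0.22 and 0.33, and mir-223 0.12 in control mice. Without libraries 1, 6 and 24, a set chosen after seeing the data, swim in dHC was 0.026 for mir-142a, 0.031 for mir-150, -0.048 for mir-155, -0.035 for mir-21a and 0.021 for mir-223, and the regional value of mir-150 was 0.075 in control mice and 0.060 after swim. For mir-21a and swim in dHC, DESeq2 size factors gave -0.016, TMMwsp -0.0037, no filter -0.0088 and the DESeq2 test -0.016. For mir-155 and swim in vHC, no surrogate variables gave -0.016, block -0.025, svaseq -0.0020 and the exact tests -0.045 and -0.045. When a library was left out, swim in dHC ran from -0.091 to 0.046 for mir-142a, -0.16 to 0.019 for mir-150, -0.0083 to 0.19 for mir-155 and -0.093 to 0.079 for mir-21a. Swim in vHC ran from -0.068 to 0.13 for mir-155 and -0.038 to 0.27 for mir-223. Region after swim ran from -0.18 to 0.060 for mir-150 and -0.17 to 0.044 for mir-155, and region in control mice from -0.26 to 0.020 for mir-223.

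No paired analysis was run, because the labels do not say which libraries share a mouse and no library number occurs in more than 1 group. Block took the place of a replicate block. The order of the library numbers leaves pairs of a vHC and a dHC library from the same mouse possible. Depth limits mir-155 and mir-223, with medians of 54 and 118 counts in a library.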
